A study of Mus musculus with 4 samples.

Results

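Mast cells sense antibody through Fc receptors, and the genes described here encode the chains of those receptors: the FceRI chains Fcer1a, Ms4a2 and Fcer1g and the IgG receptors Fcgr1, Fcgr2b and Fcgr3. A probe set, the group of short probes that reports 1 transcript on an Affymetrix array, was taken when its only gene symbol in the platform annotation was one of these 6. This gave 9 probe sets of the 22626 that are not controls, and the 6 genes are among 12393 named by a single symbol. Fcgr2b has 4 probe sets and each of the other genes has 1. Of the 9, 7 reached a mean normalised intensity of 100 over the arrays and were tested, as were 7770 in the whole table. The Fcgr1 probe set and 1 Fcgr2b probe set were below that minimum, and their values are given without a test.

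The arrays carried total RNA of bone marrow-derived mast cells, grown for 4 to 6 weeks in 5 ng/ml interleukin-3 from marrow of mice aged 8 to 12 weeks. The groups were wild-type (Pac1+/+) and Pac1-/-, which lacks Pac1, the MAP kinase phosphatase encoded by Dusp2; the sources used here do not describe the allele or the strain. Both groups had been loaded with IgE against dinitrophenyl at 100 ng/ml for 18 h, washed, and crosslinked with the antigen DNP-HSA at 20 ng/ml for 2 h, so there was no resting sample among them. Each group had 2 samples with 1 array each, numbered 1 and 2, which limits the precision of every value; the labels do not say whether they came from separate cultures or mice.

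FceRI is the high-affinity IgE receptor and, in rodents, a tetramer. The alpha chain (Fcer1a) holds IgE outside the cell, and the beta chain (Ms4a2) spans the membrane and amplifies the signal. Each of a pair of gamma chains (Fcer1g) carries an ITAM, a tyrosine motif that recruits the kinase Syk once it is phosphorylated. The gamma chain also serves the activating IgG receptors encoded by Fcgr1 and Fcgr3. Fcgr2b encodes the inhibitory IgG receptor, whose cytoplasmic ITIM recruits the phosphatase SHIP and dampens FceRI signals when IgG and IgE are crosslinked together.

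The signals of Fcer1a, Ms4a2 and Fcer1g, whose products form a single receptor, varied very differently over the arrays. The 250 bases before the RefSeq start of each gene are printed here in the gene's direction, from the RefSeq table of build GRCm38.p6. Capitals mark GATAA, the core bound by GATA factors, or its reverse complement TTATC. Fcer1a lies at chr1:173227230-173227479, Ms4a2 at chr19:11623720-11623969 and Fcer1g at chr1:171234350-171234599, each on the minus strand.
Fcer1a: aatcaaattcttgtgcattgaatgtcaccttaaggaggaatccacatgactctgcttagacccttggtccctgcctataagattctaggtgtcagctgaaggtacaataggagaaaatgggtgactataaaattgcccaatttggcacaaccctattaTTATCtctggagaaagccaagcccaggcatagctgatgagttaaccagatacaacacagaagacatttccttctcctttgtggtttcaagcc
Ms4a2: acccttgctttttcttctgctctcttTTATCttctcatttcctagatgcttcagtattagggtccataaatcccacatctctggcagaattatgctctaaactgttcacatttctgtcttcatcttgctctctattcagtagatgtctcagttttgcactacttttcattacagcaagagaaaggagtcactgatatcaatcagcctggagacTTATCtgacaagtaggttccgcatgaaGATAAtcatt
Fcer1g: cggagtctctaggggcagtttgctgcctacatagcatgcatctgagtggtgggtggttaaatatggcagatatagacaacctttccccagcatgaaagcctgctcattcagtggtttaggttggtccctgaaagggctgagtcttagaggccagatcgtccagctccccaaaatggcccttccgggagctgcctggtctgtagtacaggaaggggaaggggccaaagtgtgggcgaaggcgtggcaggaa

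The Ms4a2 window holds 3 GATAA matches, of which the nearest begins 10 bases before the start. The Fcer1a window holds 1, beginning 92 bases before the start, and the Fcer1g window holds 0. Of 32851 mouse promoter windows of 250 bases, 22.6% hold at least 1 match and 0.712% hold at least 3. The ETS-type core GGAAG, also read on both strands, occurs 3 times in the Fcer1g window. It occurs 3 times before Fcgr1 as well, 2 times before Fcgr2b and 1 time before Fcgr3. For Fcgr3, which has 2 annotated windows, only the first was read. At least 1 match is found in 64.1% of all windows, and the share with at least 3 was not counted. These are matches of letters and no measure of binding, and a link between them and the signals was not tested. In the same assembly Fcgr2b, Fcgr4 and Fcgr3 are consecutive protein-coding genes on chromosome 1, and 7 protein-coding genes lie between Fcgr3 and Fcer1g.

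By correlation, the arrays resembled each other by replicate number more than by genotype. The correlation of log2 intensity over tested probe sets, which are no replicates of one another, was r = 0.885 within number 1 and 0.750 within number 2, but 0.437 within wild-type and 0.468 within Pac1-/-. The Y-linked gene Eif2s3y differed by number too, with 219 (wild-type) and 275 (Pac1-/-) for number 1 but 0.95 and 2.1 for number 2. Of the other sex-linked genes read, Uty was at 449 and 159 for number 1 but 4.1 and 12.2 for number 2. Xist went the other way, with 47.7 and 41.7 for number 1 but 2952 and 984 for number 2. Kdm5d was below 100 on every array. The labels name no sex. Pac1-/- replicate 2 had the lowest median deposited intensity, 24.5 against 40.6 to 49.3 on the others, and a GAPDH 3' to 5' signal ratio of 191 against 0.798 to 1.36. The actin 3' to 5' ratio was 109 and 1.58 on wild-type replicates 1 and 2 and 293 and 54.8 on Pac1-/- replicates 1 and 2, so it was higher on the replicate 1 array of either genotype and near 1 only on wild-type replicate 2. The part of these values in the results was not tested. Of 14 mast cell marker genes on the array, 10 read at least 100 on every array, and the summed normalised intensity of the 14 lay between 38936 and 51701. Of these the tryptase gene Tpsb2 read 476 on Pac1-/- replicate 2 against 5838 to 7259 on the others. Over 98% of the cells had stained for FceRI and for Kit, the stem cell factor receptor. The Kit gene read between 1521 and 3672 by its brightest probe set. Another tested Kit probe set was 4.26 log2 units higher on replicate 2 than on replicate 1 in wild-type cells, and within replicate 2 its Pac1-/- minus wild-type difference was -4.31.

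The FceRI alpha chain gene was bright on every array. Fcer1a (1421775_at) had normalised intensities of 9337 and 6915 on wild-type replicates 1 and 2 and of 10064 and 9337 on Pac1-/- replicates 1 and 2. Wild-type replicate 2 was the lowest and Pac1-/- replicate 1 the highest, and wild-type replicate 1 shared its value with Pac1-/- replicate 2, so the genotypes overlapped. The log2 intensity was 12.97 ± 0.31 in wild-type and 13.24 ± 0.08 in Pac1-/- cells (SD, n = 2). The difference, Pac1-/- minus wild-type, was 0.27 ± 0.38 (SE; 95% confidence interval -0.81 to 1.35; limma adjusted p = 0.908). It was 0.50 on the deposited values and 1.12 with median centring of the arrays, and leaving out wild-type replicate 2 or 1 gave 0.05 or 0.49. The range over the 4 arrays was 0.54 log2 units, and 88.6% of tested probe sets had a range at least as wide.

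The gamma chain gene was also bright throughout. Fcer1g (1418340_at) read 3614 and 3705 in wild-type cells and 3027 and 4803 in Pac1-/- cells. Both wild-type values lay between the Pac1-/- values. The log2 difference was 0.06 ± 0.42 (SE, n = 2 a group, 95% interval -1.14 to 1.26, limma adjusted p = 0.992), with -0.26 within replicate 1 and 0.37 within replicate 2. Without Pac1-/- replicate 2 it was -0.27. On the values as deposited, Fcer1a at 12102 and Fcer1g at 5766 were both highest on Pac1-/- replicate 2, the array with the lowest median. There they were 1.71 and 1.63 times their wild-type replicate 2 values, and quantile normalisation made both gaps smaller.

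The beta chain gene, read by 1 probe set alone, did not follow its partners. Ms4a2 (1421475_at) read 143 in wild-type and 41.9 in Pac1-/- cells of number 1, but 3261 in wild-type and 1502 in Pac1-/- cells of number 2. Both replicate 2 arrays were far above both replicate 1 arrays, and the genotypes overlapped. On the deposited values the replicate 2 array was 20.4 times the replicate 1 array in wild-type cells and 41.7 times in Pac1-/- cells. After normalisation these differences were 4.52 and 5.16 log2 units. They are descriptions of single arrays, with no test, and the second is approximate because Pac1-/- replicate 1 read below 100. The mean of Ms4a2 reached the minimum for testing through the replicate 2 arrays, so its place among the tested probe sets is no support for this difference.

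**Figure D1:**
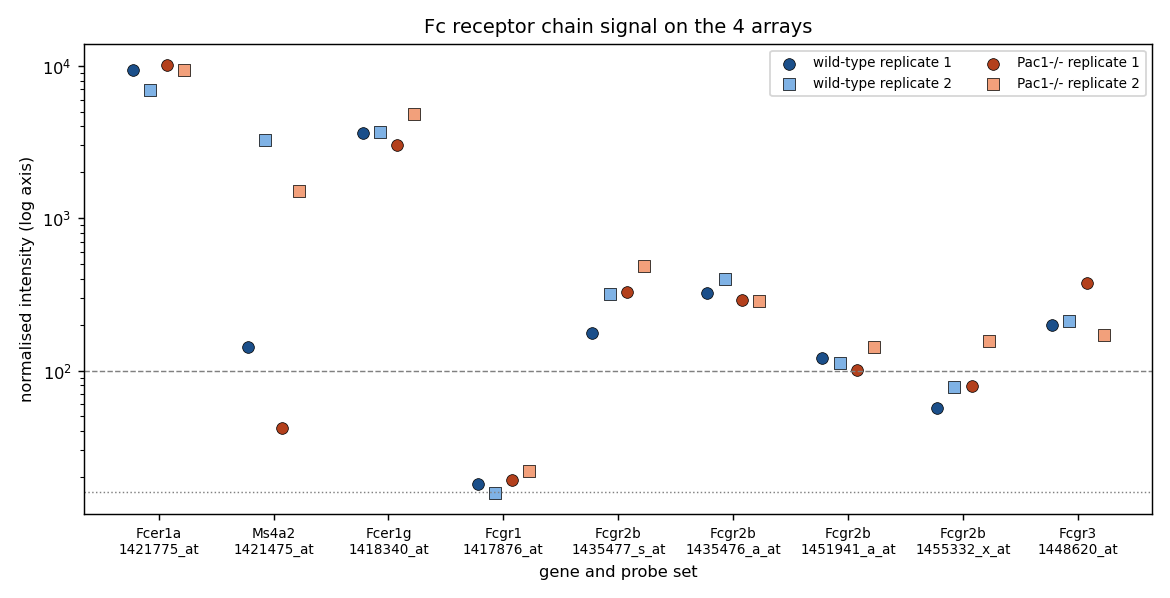
Normalised intensity (log axis) of the 9 Fc receptor chain probe sets, 1 point per array; blue is wild-type, red is Pac1-/-, circles are replicate 1 and squares replicate 2, the dashed line is the minimum of 100 and the dotted line the floor of 16. Fcer1a stays between 6915 and 10064 and Fcer1g between 3027 and 4803, while Ms4a2 spans 41.9 to 3261, with both squares above both circles.

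Within either replicate number the Pac1-/- array had the lower Ms4a2 signal. As Pac1-/- minus wild-type on the log2 scale, the difference was -1.77 within replicate 1 and -1.12 within replicate 2. On the deposited values wild-type was 3.55 and 1.73 times Pac1-/-. The replicate 1 values are approximate, because Pac1-/- replicate 1 was below 100. The fit on all 4 arrays put the difference at -1.44 ± 2.54 (SE, n = 2 a group, 95% interval -8.73 to 5.84, limma adjusted p = 0.934), and at -1.14 with a floor of 64. This difference was within the spread between replicates, and without Pac1-/- replicate 1 it was 1.14, without wild-type replicate 2 it was 0.82. Without wild-type replicate 1 it was -3.70 and without Pac1-/- replicate 2 it was -4.02, and in each of these fits the genotypes no longer hold the same replicate numbers.

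A ratio between probe sets of the same array, taken on the deposited values, does not change when an array is multiplied by a single factor, though quantile normalisation does alter it. The contrasts given here were chosen after the values were seen. The level of the contrast itself has no meaning between different probes, so only its change between arrays is read. On the deposited values the log2 ratio of Fcer1g to Fcer1a was -1.17 and -1.002 in wild-type cells and -1.61 and -1.07 in Pac1-/- cells. Pac1-/- was lower within either replicate number, by differences of -0.45 and -0.07, but the genotypes overlapped. The log2 ratio of Ms4a2 to Fcer1a was -5.67 and -1.21 in wild-type cells and -7.71 and -2.78 in Pac1-/- cells. It was lower in Pac1-/- cells within both numbers, by differences of -2.04 and -1.57, of which the first rests on the dim Ms4a2 signal of Pac1-/- replicate 1, while the gap between the numbers was 4.45 in wild-type and 4.93 in Pac1-/- cells. With 2 arrays a group, the smallest two-sided p of an exact permutation test is 0.333, so no test was run on these ratios.

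A difference of this kind was not confined to Ms4a2. Of the 7770 tested probe sets, 8.48% were at least 1 log2 unit higher on replicate 2 in both genotypes and 8.98% at least 1 unit lower. Ms4a2 was the only 1 of the 7 tested Fc receptor probe sets in either class. For 90 probe sets, 1.16%, the smaller of the increases in the 2 genotypes was at least the 4.52 seen for Ms4a2. Fcer1a differed by -0.43 in wild-type and -0.11 in Pac1-/- cells, and Fcer1g by 0.04 and 0.67. The sizes depended on the scaling, and so did the sign of Fcer1a in Pac1-/- cells. In those cells Fcer1a was at 0.45 on the deposited values and 1.18 with median centring, and Fcer1g at 0.995 and 1.72.

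**Figure D2:**
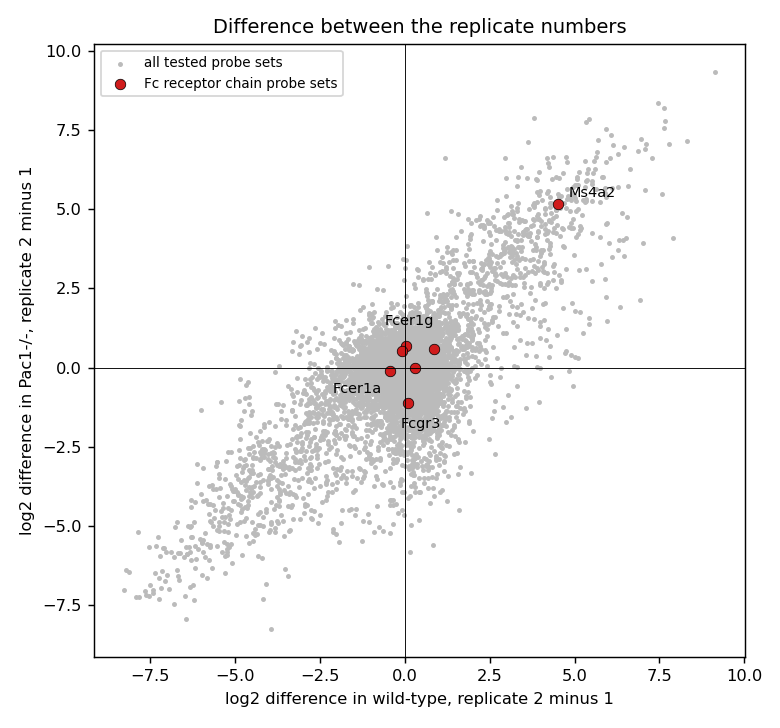
Log2 difference in normalised intensity, replicate 2 minus replicate 1, in wild-type (x axis) and Pac1-/- cells (y axis); grey points are the 7770 tested probe sets and red points the 7 tested Fc receptor chain probe sets. Ms4a2 lies at 4.52 and 5.16 in the arm of probe sets high on replicate 2, and the other 6 lie near the centre.

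The genes with values most like those of Ms4a2 were not other receptor chains. Likeness was measured as the Euclidean distance between log2 values over the 4 arrays, each gene centred on its own mean and represented by its brightest probe set. This distance depends on how widely a gene varies as well as on its order of arrays. Of 4997 genes compared, the nearest were the stress-response transcription factor Atf4 (distance 0.09), the ribonuclease inhibitor Rnh1 (0.13) and the ribosomal protein gene Rpl7a (0.48). Atf4 read 217 (replicate 1) and 4694 (replicate 2) in wild-type and 60.4 and 2093 in Pac1-/- cells. Rnh1 was below the floor of 16 on Pac1-/- replicate 1, so its distance depends on that floor.

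The same contrast between replicate numbers was seen in B2m, the light chain of MHC class I and of the neonatal IgG receptor, which nearly all nucleated cells make. For replicates 1 and 2, B2m read 123 and 5765 in wild-type cells and 93.1 and 6577 in Pac1-/- cells. Its other probe set read 35.2 and 1416, and 9.38 and 3516. Tyrobp, another ITAM adaptor, read 45.0 and 2560 in wild-type cells and 36.1 and 2338 in Pac1-/- cells. In the other direction Cd68, a lysosomal glycoprotein used as a macrophage marker, read 7512 and 118 in wild-type cells and 5638 and 121 in Pac1-/- cells.

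Ms4a2 has 1 probe set, so no other probe set of the gene can be set beside it. For genes with at least 2 tested probe sets, the 2 brightest were compared, and a difference was counted only when both genotypes showed it. Where the brightest was at least 3 log2 units higher on replicate 2, the second was at least 1 unit higher in 17 of 45, or 37.8%. It was at least 1 unit lower in 2. Among all 1468 genes with at least 2 tested probe sets, 11.5% of the second probe sets were that much higher. In the other direction, that of Cd68, agreement was rarer. Of 89 genes whose brightest probe set was at least 3 units lower on replicate 2, the second was at least 1 unit lower in 9, or 10.1%. It was at least 1 unit higher in 6, and 8.17% of all second probe sets were at least 1 unit lower. Atf4 was among those whose second probe set went different ways in the genotypes, with 444 and 228 in wild-type cells and 137 and 555 in Pac1-/- cells.

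**Figure D3:**
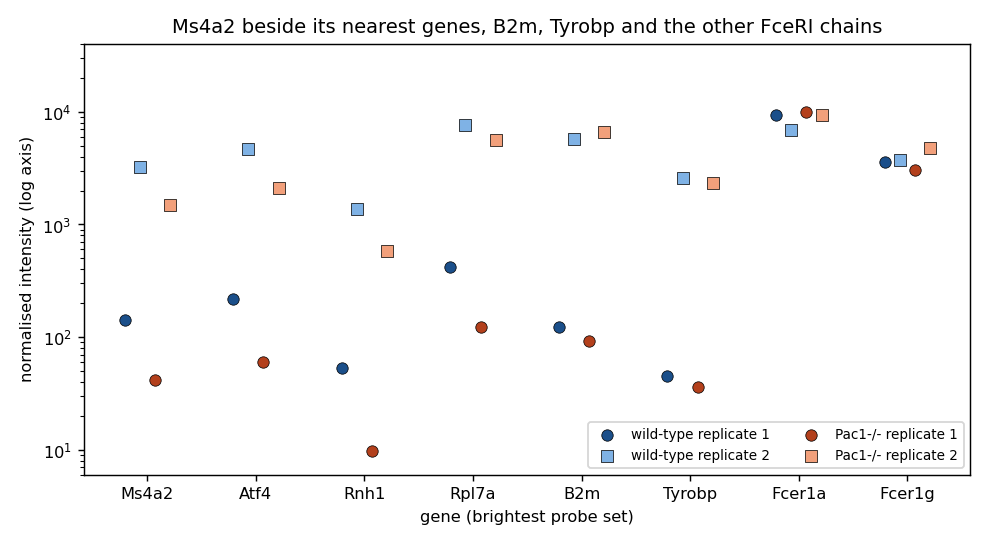
Normalised intensity (log axis) by array for Ms4a2, its nearest genes by pattern (Atf4, Rnh1 and Rpl7a), B2m, Tyrobp and the other FceRI chain genes, with colours for genotype and shapes for replicate number. For Ms4a2, Atf4, Rnh1, Rpl7a, B2m and Tyrobp both replicate 2 arrays lie above both replicate 1 arrays, whereas Fcer1a and Fcer1g show no such gap.

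After quantile normalisation Fcer1a and Fcer1g varied little over the arrays. Other genes of small range therefore lay close to them by this distance whatever their order of arrays. The nearest to Fcer1a were Mef2a, Slc35e4 and Rpl38, at 0.02, 0.04 and 0.06, and the nearest to Fcer1g were Rpp30, Sarnp and Sqle, at 0.05, 0.07 and 0.07.

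The inhibitory receptor gene Fcgr2b gave different answers by probe set. In Affymetrix naming, _a_at marks probes shared by transcripts of 1 gene, _s_at probes that may be shared by transcripts of several genes, and _x_at probes that may bind unrelated transcripts. Mouse Fcgr2b and Fcgr3 are closely similar in their extracellular parts, and the probe sequences were not used here, so the signal of either gene may hold some of the other. The differences between the Fcgr2b probe sets are therefore uncertain.

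The probe set 1435477_s_at read 177 and 318 in wild-type cells and 326 and 485 in Pac1-/- cells. Both Pac1-/- arrays were above both wild-type arrays, though the lower Pac1-/- array exceeded the higher wild-type array only slightly. The log2 difference was 0.74 ± 0.51 (SE, n = 2 a group, 95% interval -0.71 to 2.19, limma adjusted p = 0.866). It was 1.42 with median centring, and leaving out wild-type replicate 1 or 2 gave 0.32 or 1.17. The probe set 1435476_a_at went the other way, with 323 and 399 in wild-type and 289 and 287 in Pac1-/- cells. Its difference was -0.32 ± 0.36 (95% confidence interval -1.34 to 0.71; limma adjusted p = 0.884), and the groups did not overlap here either; with median centring of the arrays in place of quantile normalisation it was 0.34.

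The dimmer Fcgr2b probe sets added no common direction. The probe set 1451941_a_at read 120 and 112 in wild-type and 101 and 143 in Pac1-/- cells, so that the wild-type values lay between the others, with a log2 difference of 0.05 ± 0.39 (SE; limma adjusted p = 0.992), which was -0.17 on the values as deposited and -0.21 without Pac1-/- replicate 2. The probe set 1455332_x_at, below the minimum for testing, read 56.9 and 78.5 in wild-type and 79.2 and 155 in Pac1-/- cells. Its order of arrays was that of 1435477_s_at. With the 3 tested Fcgr2b probe sets averaged on each array, the log2 difference was 0.16.

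The ratio of 1435477_s_at to 1435476_a_at within an array, on the deposited values, gives their disagreement without any scaling. Its log2 was -0.80 and -0.31 in wild-type cells and 0.16 and 0.89 in Pac1-/- cells. The ratio was higher in Pac1-/- cells by 0.95 within replicate 1 and by 1.20 within replicate 2. In the fit the genotype differences of these probe sets lay 1.06 log2 units apart. Such a gap was not unusual: 37.1% of 1468 genes had at least as wide a gap between their 2 brightest tested probe sets, and 49.2% had opposite signs.

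**Figure D4:**
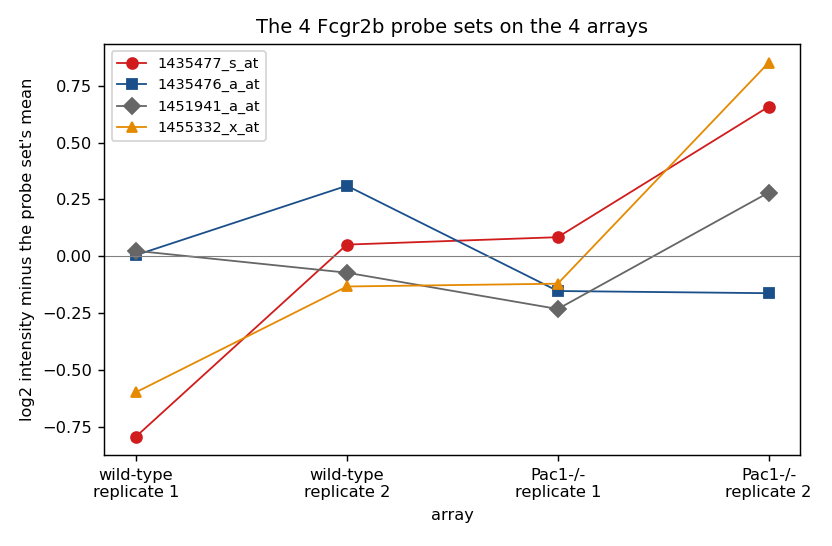
Log2 normalised intensity of each Fcgr2b probe set minus its own mean over the 4 arrays (y axis) on each array (x axis); lines join the values of 1 probe set and carry no order. The probe sets 1435477_s_at and 1455332_x_at are highest on Pac1-/- replicate 2, whereas 1435476_a_at is highest on wild-type replicate 2.

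Of the activating IgG receptors, Fcgr3 was measured and Fcgr1 was dim. Fcgr3 (1448620_at), the low-affinity receptor that signals through the gamma chain, read 199 and 211 in wild-type cells and 373 and 172 in Pac1-/- cells. Pac1-/- replicate 1 was the highest and Pac1-/- replicate 2 the lowest, so the wild-type values lay between them. The log2 difference was 0.30 ± 0.53 (SE, n = 2 a group, 95% interval -1.23 to 1.83, limma adjusted p = 0.934). Within replicates 1 and 2 it was 0.90 and -0.30. Without Pac1-/- replicate 1 it was -0.25. The genes with the nearest patterns were Blcap, Cd81 and Fbxl20, at distances of 0.07, 0.20 and 0.21.

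Fcgr1 (1417876_at), the high-affinity IgG receptor best known from macrophages, read 18.1 and 15.7 in wild-type cells and 19.3 and 22.0 in Pac1-/- cells. Its deposited values were 23.1 and 19.3, then 17.9 and 12.6. The Pac1-/- arrays were the higher ones after normalisation and the lower ones before it, at a level close to the floor of 16, so no direction is given. Fcgr4, an activating IgG receptor that lies between Fcgr2b and Fcgr3, was also below 100 on every array, at 28.6 to 69.9.

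IgG receptors are also made by macrophages and B cells, and the markers of those cells were read beside them. Of 18 macrophage and monocyte markers on the array, 13 were below 100 on every array. Their summed intensity was 8154 and 816 for wild-type replicates 1 and 2 and 6451 and 1120 for Pac1-/- replicates 1 and 2, in which Cd68 alone made most of the replicate 1 sum. Csf1r, a defining receptor of the lineage, read 54.3 and 101.7 in wild-type and 44.7 and 57.5 in Pac1-/- cells. Adgre1 read 248 and 250 in wild-type and 222 and 217 in Pac1-/- cells. Both were thus lower in Pac1-/- cells within both replicate numbers. The lysozyme genes of the list went the other way, so the list held no common direction. Lyz1 read 54.4 and 56.8 in wild-type and 186 and 342 in Pac1-/- cells, and Lyz2 read 73.3 and 56.8 in wild-type and 122 and 136 in Pac1-/- cells. All 14 lymphocyte markers on the array were below 100 on every array. The part of other cells in the Fc receptor signals was not tested, and in such bulk RNA a change in the number of cells of a type and a change in RNA per cell cannot be told apart.

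No Fc receptor chain passed the test between the genotypes. At a limma adjusted p under 0.05 the count was 0 of 7 probe sets, where 0% of all 7770 passed. At an unadjusted p under 0.05 it was also 0, where 3.38% of all passed, 2.25% higher and 1.13% lower in Pac1-/- cells. The genotypes did not overlap in 2 of the 7, both of Fcgr2b and in opposite directions, against 37.7% of all tested probe sets, 24.3% with Pac1-/- higher and 13.4% with it lower. The lowest unadjusted p, 0.222 for Fcgr2b 1435477_s_at, ranked 1970 of 7770. These p-values measure the spread between 2 samples of a genotype, which may be technical in part. That spread held the differences between the replicate numbers as well, those of the sex-linked genes among them. A p above the threshold is no evidence of equal signal.

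**Figure D5:**
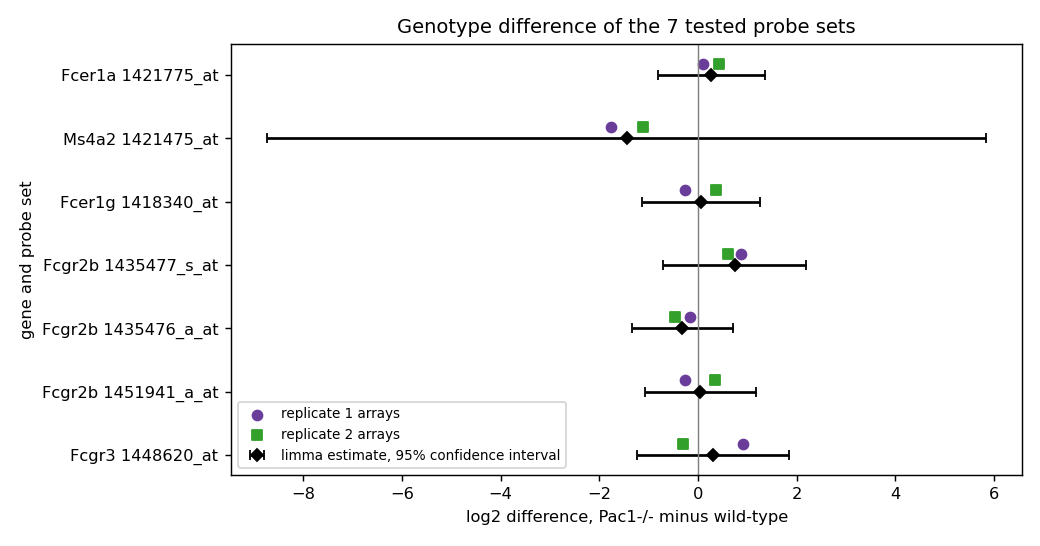
Log2 difference, Pac1-/- minus wild-type (x axis), of the 7 tested Fc receptor chain probe sets; diamonds are the limma estimates with 95% confidence intervals from 4 arrays, and coloured points the differences within replicates 1 and 2. Every interval includes 0, and that of Ms4a2 is the widest, from -8.73 to 5.84.

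The genes around the receptors were read from lists. Taking the brightest probe set of each gene, 0% of 4998 tested genes passed the adjusted test and 2.92% the unadjusted one. The groups did not overlap in 37.6%. The difference was positive in 2802 of the 4998, and the median log2 difference was 0.10. When arrays were centred on their median, 3987 were positive and the median was 0.72. Among the kinases, adaptors and phosphatases of proximal FceRI signalling, 29 of 42 genes on the array were tested. Of these, 0 passed the adjusted test and 1 the unadjusted test, 13 had a positive and 16 a negative difference, and the median was -0.24. With median centring 21 were positive, with a median of 0.51, still below that of all genes. The Ras exchange factor Sos2, with 98.0 and 52.9 in wild-type and 223 and 223 in Pac1-/- cells, was the 1 past the unadjusted test, at 1.63 ± 0.47 (SE; limma adjusted p = 0.866). The adaptor Dok2, a brake on Ras, was at -1.03 ± 0.42, the Rab5 exchange factor Rabgef1 at 0.88 ± 0.42 and the adaptor Fyb at 0.72 ± 0.38. In both genotypes 2 of the 29, Lat2 and Stap1, were at least 1 log2 unit higher on replicate 2. Another 3, Fyn, Prkca and Syk, were at least 1 unit lower. Over all 4998 genes these counts were 320 and 454. For replicates 1 and 2, Syk read 589 and 23.7 in wild-type and 328 and 7.7 in Pac1-/- cells.

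The partners and relatives of the receptors were mostly dim. Of 12 genes on the array that encode signalling adaptors of activating receptors, or receptors that pair with the gamma chain or with such an adaptor, 4 were tested, 1 with a positive and 3 with a negative difference (3 and 1 with median centring), and 0 passed either test. Pilrb1, an activating receptor that pairs with Tyrobp, was at 1.22 ± 0.51 (SE); with median centring it was at 1.88 and passed the unadjusted test (limma unadjusted p = 0.040, adjusted p = 0.607). The adaptor Hcst, which has no ITAM, was at -0.63 ± 0.53 (-0.08 without Pac1-/- replicate 2 and -1.19 without Pac1-/- replicate 1), Tyrobp at -0.22 ± 3.10 and the lectin receptor Clec4n at -0.002 ± 0.38. Of 11 other Fc receptors and related genes on the array 3 were tested: Trim21, a cytosolic IgG receptor, at 0.54 ± 0.39, the IgE-binding galectin Lgals3 at -0.44 ± 2.10 and B2m at -0.10 ± 3.06, of which the last 2 were positive with median centring. The neonatal receptor heavy chain Fcgrt read between 11.7 and 32.5. The family of Ms4a2, the membrane-spanning 4A proteins, had 11 other genes on the array and 0 of them were bright enough to test.

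Inhibitory receptors other than Fcgr2b were split. Of 17 on the array 11 were tested, 5 with a positive and 6 with a negative difference (7 and 4 with median centring), and 0 passed either test; the median was -0.04. The adhesion receptor Pecam1 read 601 and 706 in wild-type and 456 and 59.4 in Pac1-/- cells, a log2 difference of -1.99 ± 1.14 (SE), with the lowest value on the array of lowest median. Without that array the difference was -0.52, and without Pac1-/- replicate 1 it was -3.46 (limma adjusted p = 0.744). The others with the lowest p were Sirpa, the receptor for Cd47, at 0.78 ± 0.87, Cd84 at 0.30 ± 0.39 and Cd300lf at 0.25 ± 0.35. Cd200r1 and Cd33 followed the replicate number as Ms4a2 did, at least 1 log2 unit higher on replicate 2 in both genotypes. Ceacam1 did the reverse by its brightest probe set, at -5.99 in wild-type and -5.52 in Pac1-/- cells. The next brightest Ceacam1 probe set differed less between replicates 2 and 1, by -0.10 in wild-type and -1.09 in Pac1-/- cells.

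A list of transcription factors linked to Fc receptor promoters held no called difference. Of 19 on the array 14 were tested, 11 with a positive and 3 with a negative difference, and 0 passed either test. The median log2 difference was 0.34, against 0.10 over all genes, of which 2802 of 4998 were positive. On the deposited values 10 of the 14 were positive. With median centring 11 of the 14 were positive, where 3987 of the 4998 genes were, and the medians were 0.93 and 0.72. Spi1 (PU.1), an ETS factor, read 229 and 232 in wild-type and 192 and 76.0 in Pac1-/- cells, at -0.93 ± 0.60 (SE), which was -0.26 without Pac1-/- replicate 2 and -1.60 without Pac1-/- replicate 1. Mitf was at 0.68 ± 0.44, Stat5b at 0.57 ± 0.44 and Elf1 at 0.58 ± 0.44. Gata2, the mast cell GATA factor, read between 2155 and 2825 and Gata1 between 484 and 791, and by these probe sets neither showed the gap between replicate numbers seen for Ms4a2. A second Gata2 probe set differed between replicates 2 and 1 by 0.18 in wild-type and -2.39 in Pac1-/- cells. Fli1 and Stat5a of the same list had a gap in the other direction. For replicates 1 and 2, Fli1 read 3316 and 178 in wild-type and 2196 and 33.6 in Pac1-/- cells, and Stat5a read 1432 and 71.5 in wild-type and 991 and 10.7 in Pac1-/- cells. Their second tested probe sets differed less, by -1.66 and -0.92 for Fli1 and by -0.18 and -0.58 for Stat5a.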

How the data were processed

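Linear intensity values per probe set, deposited by the authors as 1 table, came from MAS5, per the submitters' processing notes. Trimming 2% off either end left array means of 150.06 to 150.08. The series' design text describes RMA, eBayes of Limma 1.3.12 and a mean intensity minimum of 100; RMA values were not used here. After 64 controls were left out, the 4 arrays were quantile normalised, values under 16 set to 16, and log2 taken. Probe sets with a mean of at least 100 were tested with limma 3.58.1 (R 4.3.3), a genotype term alone, two-sided p-values and a Benjamini-Hochberg threshold of 0.05, with 2 residual and 1.7 prior degrees of freedom. The labels number 2 samples per genotype without saying what the number marks. The steps were tested on simulated data, where recovery of large changes was required only at a spread far below that of these arrays. That run does not show what would be recovered at the spread seen here.

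The receptor genes and the lists were chosen with earlier results of these data known. Named from the lists were up to 4 tested genes per list with the lowest p, and per receptor gene the 3 genes of nearest pattern. B2m, Tyrobp, Cd68, Atf4's second probe set, Kit, Tpsb2, Eif2s3y, Uty, Xist, Kdm5d, Csf1r, Adgre1, Lyz1, Lyz2, Fli1, Stat5a, Fcgr4, Fcgrt, Cd200r1, Cd33, Ceacam1, Lat2, Stap1, Fyn, Prkca, Syk, Gata1 and Gata2 were chosen after their values were seen. Promoter windows came from the RefSeq table of GRCm38.p6, in which all 6 genes matched; motif letters and windows were also chosen with the values known. Alternatives were the deposited values, median centring, no minimum, a minimum of 200, a floor of 64, an intensity trend, the replicate block, leaving out each array, and averaging probe sets. Figures used matplotlib 3.10.9.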

Additional observations from a re-analysis of the deposited data

How the results depend on the processing

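No alternative called a receptor probe set (lowest limma adjusted p 0.377, highest 1.000). Of 81 values for them 74 kept their direction, but much of that agreement was fixed in advance. The minimum, intensity trend and replicate block settings cannot change the estimate with these equal groups. A floor of 64 changed it only for Ms4a2, and averaging probe sets only for Fcgr2b. The 7 reversed values came from a change of scaling or from an array left out. The replicate numbers are shared by label only, with no stated pairing; deviations from the genotype means of same-numbered arrays correlated at r = 0.751, a value that is the same for either number when groups hold 2 arrays. With the replicate block 899 probe sets had an unadjusted p under 0.05 (263 without it; 0 adjusted in both), 328 higher and 571 lower in Pac1-/- cells. Ms4a2 was then at -1.44 ± 0.48 (SE; limma unadjusted p = 0.019, adjusted p = 0.377), the 1 of 7 receptor probe sets past the unadjusted test, where 11.6% of all passed; Pilrb1 and Pecam1 passed it too (limma unadjusted p = 0.0496 and 0.0316). That count was 1762 with no intensity minimum and 110 with a minimum of 200, where more or fewer probe sets were tested, and 79 to 408 with an array left out. Of those past the unadjusted test, 175 were higher and 88 lower; these were 110 and 93 on the deposited values and 288 and 27 with median centring, where the median difference over tested probe sets was 0.66. Without Pac1-/- replicate 1 they were 48 and 360, without wild-type replicate 2 they were 30 and 49, and without Pac1-/- replicate 2 they were 35 and 51, so that the lower ones were then the more numerous.

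Values that turned sign on the deposited values were Fcgr2b 1451941_a_at (-0.17) and B2m (0.035), and with median centring Fcgr2b 1435476_a_at (0.34), Lgals3 (0.40), B2m (0.66), Tyrobp (0.42) and Clec4n (0.61). With an array left out, Ms4a2 ranged from -4.02 to 1.14, Fcer1g from -0.27 to 0.39, Fcgr2b 1451941_a_at from -0.21 to 0.30, Fcgr3 from -0.25 to 0.86, Lgals3 from -2.63 to 1.74, B2m from -3.18 to 2.97, Tyrobp from -3.23 to 2.78, Clec4n from -0.20 to 0.19 and Sirpa from -0.30 to 1.87. The lone array is then assumed to vary like the other genotype. The Ms4a2 difference between replicate numbers in Pac1-/- cells was 6.11 with median centring and 4.55 with a floor of 64. Apart from the settings' own construction, the cause was not tested. Signals near the floor limit what Fcgr1 can show.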
